A study of Saccharomyces cerevisiae with 18 samples.

Results

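The genes that encode proteins of the small ribosomal subunit were followed through the germination of Saccharomyces cerevisiae spores. A gene was taken when its symbol in the array's own annotation began with RPS and a digit, which chose 45 of the 6218 genes present on both array layouts. Of these, 39 had a value in all 18 groups and were analysed among 5826 genes, and the other 6, among them RPS1B, RPS9A, RPS18B, RPS21B and RPS24B, lost too many spots to quality flags. The rule used the name of a gene and no measured value.

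Y55 spores received either YPD, which supplies peptone and yeast extract besides its sugar, or 2% glucose with no other nutrient, and RNA was taken at 0, 4 and 8 min, at 16, 32 and 48 min, and at 64, 96 and 128 min. RNA of each time was labelled with Cy5 and hybridised against Cy3-labelled RNA of dormant spores of the same strain, with no dye swap, so every value is a log2 ratio over dormant spores. Each group held 3 replicate arrays, except glucose at 0 min with 2, which gave 27 YPD arrays and 26 glucose arrays. The samples of both media shared the strain, the spore stage and the reference RNA, and no genetic change separated any of the groups. A second array layout was used on 11 of the 26 glucose arrays and on no YPD array, so layout and medium can be told apart only in part.

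A ribosome joins a small subunit, which reads the mRNA, to a large subunit, which forms peptide bonds, and each subunit is built in the nucleolus and nucleus from ribosomal RNA and many proteins. Most yeast genes for small-subunit proteins exist as an A and a B copy left by an ancient duplication of the genome, and the copies encode identical or almost identical proteins. Transcription of these genes is known to follow growth, through the nutrient-sensing TOR and protein kinase A pathways and the factors Rap1, Fhl1, Ifh1 and Sfp1.

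The annotation printed in the scanner files is old. For 19 of the 45 genes it carried a symbol other than the one in RefSeq, and the RefSeq symbol is used here, matched by systematic identifier for 45 of 45. The rule left out 12 small-subunit genes that the annotation lists first under another name (RPS0A, RPS0B, RPS1A, RPS2, RPS9B, RPS14A, RPS14B, RPS17B, RPS20, RPS29B, RPS31 and ASC1), of which 11 were measured and are given separately. The RPS spots were bright. Their median log2 brightness was 11.19 for RPS genes and 9.22 for all genes, 43 of 45 RPS genes lay above the median of all genes, and 27 of 45 stood above background in both dyes on every array. Of the spots of RPS genes, 16.8% were left out for a flag, against 14.4% of all gene spots. Copies A and B with almost the same coding sequence can bind the same labelled cDNA on spotted arrays, so a difference between copies may be understated.

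In both media most RPS genes ended above dormant spores, and from 8 min on their median was higher in YPD. The median log2 ratio of the 39 genes in YPD was -0.06 at the start and took the values 0.13, 0.53, 0.85 and 1.06 after 16, 32, 64 and 128 min. In glucose it was 0.02 at the start and took the values -0.22, 0.07, 0.39 and 0.70 after the same intervals. At 32 min the array medians were 0.63, 0.42 and 0.59 in YPD, against -0.15, -0.11 and 0.02 at 0 min in YPD. At 32 min in glucose the array medians were 0.12, -0.28 and 0.28, so every YPD array stood above every glucose array at that time. At 128 min they were 1.09, 0.90 and 1.11 in YPD and 0.49, 0.85 and 0.76 in glucose, and again the media did not overlap. In these bulk samples, more cells that express a gene and more RNA of that gene per cell cannot be told apart.

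**Figure D1:**
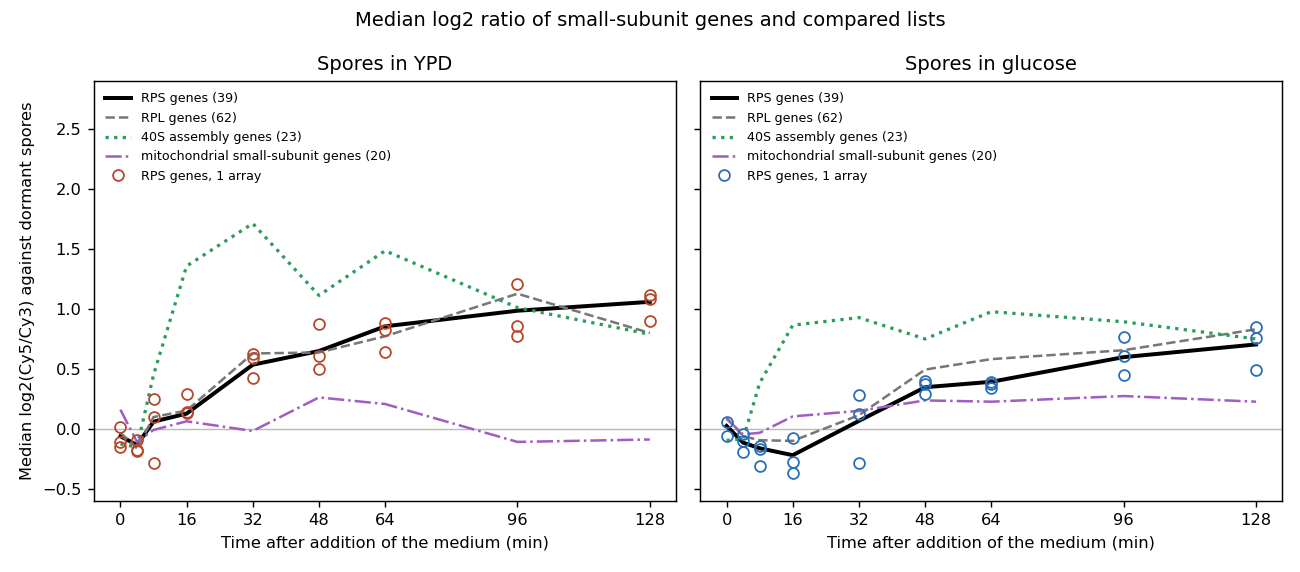
Median log2(Cy5/Cy3) against dormant spores (y axis) over time in min (x axis) for the 39 RPS genes, 62 genes of the large subunit (RPL), 23 genes for assembly of the small subunit and 20 mitochondrial small-subunit genes, in YPD (left) and glucose (right); open circles are the RPS median of single arrays. The RPS line reaches 1.06 in YPD and 0.70 in glucose at 128 min, and the line of the assembly genes lies above it at 16 and 32 min in both media.

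Against 0 min of the same medium, limma's moderated test over all 18 groups (Benjamini-Hochberg over the 5826 genes, adjusted p under 0.05) called no RPS gene at 4 min in either medium, when 7.74% of all genes were called up and 6.14% down in YPD and 0% in glucose. In YPD it then called 3 RPS genes up and 0 down at 8 min (10.8% and 5.34% of all genes), and 8 up and 2 down at 16 min (22.7% and 25.9% of all genes). At 32 min 21 of 39 were up and 1 was down, where 22.2% and 26.6% of all genes were, and the median RPS change was 0.60 against -0.04 over all genes. Without YPD replicate 1 the count up at 32 min was 13. The images of the 3 YPD arrays at 32 min were quantified on a day that held no other group. Any change at 32 min in YPD and that day therefore cannot be told apart. The counts up were 23 at 48 min (19.4% of all genes), 29 at 64 min (22.8%) and 28 at 96 min (20.2%), with 1 gene down each time, when 26.3%, 28.4% and 25.9% of all genes were down. At 128 min 31 of 39 were up and 1 was down, with 18.4% of all genes called up and 25.7% called down, and the median RPS change was 1.10 against -0.04. With the day on which the images were quantified as a fixed block the count up at 128 min was 14.

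In glucose the same test called no RPS gene at 8 min, when 2.4% of all genes were up and 0.463% down. It called 1 RPS gene up and 3 down at 16 min (9.13% and 6.81% of all genes) and 1 up and 0 down at 32 min (8.07% and 9.05%), where the median RPS change was 0.02 and 20 of 39 changes were above 0. The counts up were 5 at 48 min (8.51% of all genes), 8 at 64 min (11.8%), 15 at 96 min (11.4%) and 19 at 128 min (11.3%). None was down at 48 min (10.4% of all genes) and 1 was down at each later time (12.8%, 13.8% and 14.2%). At 128 min the median RPS change in glucose was 0.73 against -0.02 over all genes. The count up at 128 min was 8 when glucose replicate 1 was left out and 9 without glucose replicate 2. Every glucose difference rests on 2 arrays at 0 min, and for most RPS genes its standard error was larger than that of the YPD difference.

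The size of the change of the brightest RPS genes differed between normalizations. Loess takes out each array's trend of the ratio with brightness. Under global loess the change at 128 min in YPD fell with brightness over the RPS genes (Spearman's rho of -0.59 over 39 genes, a description, since the genes share arrays). The rho was -0.61 over 62 RPL genes and -0.13 over all genes. With the curve fitted without RPS and RPL spots the rho over RPS genes was -0.14, and with plain median centring of each array it was -0.03. The median RPS change at 128 min in YPD was 1.10 under global loess, 0.98 under print-tip loess, 1.86 with the curve fitted without ribosomal spots and 2.04 with median centring, with 31, 28, 37 and 37 of 39 genes called up. In the same order 18.4%, 20.4%, 20% and 21.1% of all genes were called up. Every one of these settings kept the median of all genes within 0.05 of 0 for that comparison. The values below are those of global loess, the kind of normalization the study describes. For the very bright genes RPS4B and RPS6B the change at 128 min in YPD was -0.15 and -0.09 under global loess and 1.45 and 1.51 with the curve fitted without ribosomal spots.

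**Figure D2:**
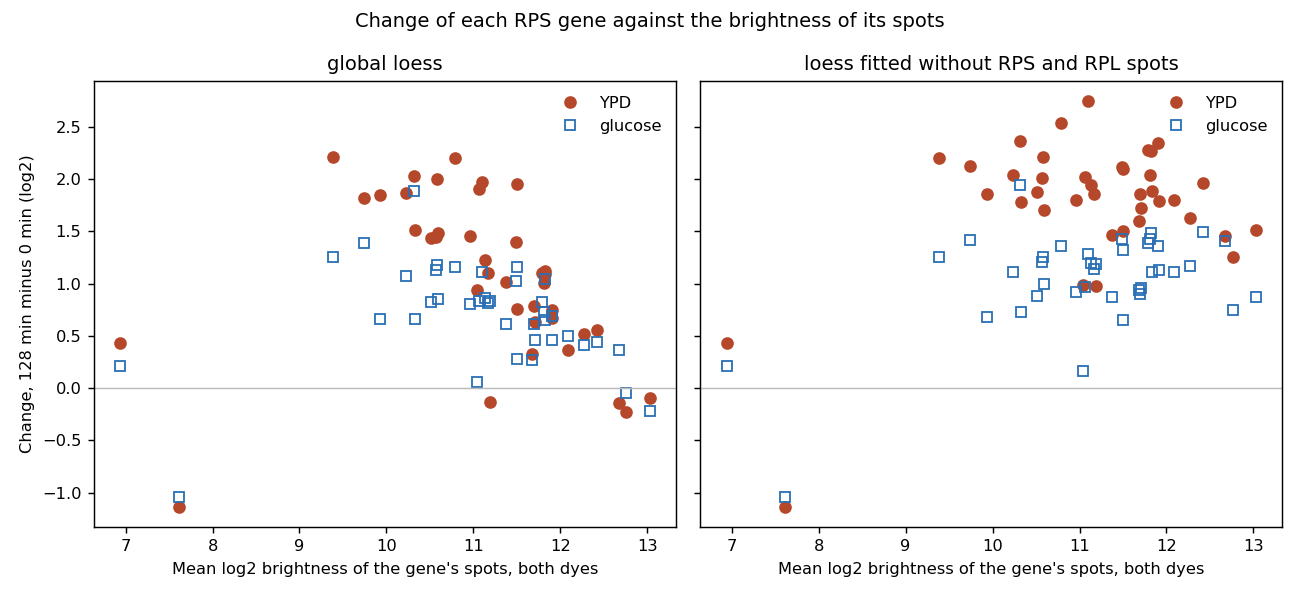
Change at 128 min minus 0 min (y axis, log2) against the mean log2 brightness of the gene's spots over both dyes (x axis) for the 39 RPS genes, YPD as filled circles and glucose as open squares, under global loess (left) and under loess fitted without RPS and RPL spots (right). The fall of the YPD points with brightness on the left, with a rho of -0.59, is mostly gone on the right, where the rho is -0.14.

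RPS13 had the largest change at 32 min in YPD. It encodes a protein of the body of the small subunit that takes part in a bridge to the large subunit. Its log2 ratios at 32 min in YPD were 1.66, 1.64 and 2.06, against -0.46, -0.11 and -0.02 at 0 min in YPD. The 2 times did not overlap, and the difference was 1.98 ± 0.22 (SE, adjusted p = 1.17e-09). At 32 min in glucose RPS13 stood at 0.65, 1.04 and 1.05, against 0.06 and 0.60 at 0 min in glucose, a difference of 0.58 ± 0.25 that missed the threshold (adjusted p = 0.102). RPS13 was first called up at 8 min in YPD and at 48 min in glucose.

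RPS28A and RPS28B were the other early genes in YPD. Both encode the same small protein of the head, near the channel through which mRNA leaves, and Rps28b is known to bind its own mRNA and promote its decay. Both were first called up at 8 min, but RPS28A was dim there. Its Cy3 signal stood above background on 1 of 3 arrays at 8 min and 0 of 3 at 0 min in YPD, and its Cy5 signal on 3 and 1. RPS28B had log2 ratios of 1.24, 1.19 and 1.13 at 16 min in YPD, against -0.27, -0.23 and -0.05 at 0 min in YPD, and rose by 1.37 ± 0.21 (SE, adjusted p = 7.8e-07). It was the 1 RPS gene called up before 48 min in glucose, where it stood at 0.37, 0.06 and 0.75 at 32 min, against -0.35 and -0.27 at 0 min. That difference in glucose was 0.71 ± 0.23 (SE, adjusted p = 0.0306), and all 3 arrays at 32 min lay above both at 0 min. RPS28B in YPD reached its highest mean, 2.08, at 64 min.

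RPS28A had log2 ratios of 3.36, 3.54 and 3.68 at 96 min in YPD, against -0.01, 0.44 and 0.31 at 0 min in YPD. Its dormant-spore signal (Cy3) stood above background on 1 of the 3 arrays at 96 min and 0 of 3 at 0 min, and its Cy5 signal on 3 and 1, so no fold is given. The fit called the times different (adjusted p = 2.22e-13). At 96 min in glucose RPS28A had 2.43, 2.35 and 1.32, so all 3 YPD arrays were higher than all 3 glucose arrays, and its single array with a value at 0 min in glucose was at 0.49. The fit called 128 min lower than 96 min for RPS28A in YPD (adjusted p = 0.0343), with Cy3 above background on 0 of 3 arrays at 128 min, a step called down in 0.292% of all genes, RPS6A among them. RPS6A had a value on 1 array at 96 min in YPD.

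The RPS genes first called up at 16 min in YPD were RPS10B, RPS21A, RPS22B, RPS26B and RPS27B. RPS10B and RPS26B belong to the head and to the mRNA exit region, and RPS21A, RPS22B and RPS27B to the body and platform. RPS22B, whose protein helps to organise the central domain of the ribosomal RNA, had 0.84, 0.40 and 1.01 at 32 min in YPD, against -0.83, -1.13 and -0.58 at 0 min in YPD. Its rise of 1.60 ± 0.30 (SE, adjusted p = 1.86e-05) was followed by a higher mean, 1.36, at 128 min. RPS21A had 0.87, 0.85 and 1.26 at 32 min in YPD and -0.10, -0.15 and -0.17 at 0 min in YPD, a rise of 1.13 ± 0.20 (SE, adjusted p = 9.34e-06). Neither gene overlapped between these times.

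At 32 min in YPD 13 further genes were called up for the first time, among them RPS7B, RPS10A, RPS12, RPS16A, RPS16B, RPS17A, RPS18A, RPS19B, RPS22A, RPS26A and RPS29A. The changes of these named genes lay between 0.50 for RPS26A and 1.20 for RPS19B, and that of RPS29A was 1.02. Between 16 and 32 min the step itself passed the test in 7 genes, among them RPS13, RPS16A, RPS16B, RPS19B and RPS25B, as in 6.78% of all genes, with the largest step, 0.94 ± 0.21, in RPS25B, a gene of the head that had first fallen by 0.56 ± 0.21 at 16 min (SE, adjusted p = 0.0233). In glucose the step with the most calls was that between 32 and 48 min, with RPS25B (0.95), RPS7B (0.95) and RPS16A (0.77) up, where 0.498% of all genes were.

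RPS3, RPS15, RPS7A and RPS25B were first called at 48 min in YPD, RPS23B, RPS24A and RPS25A at 64 min, RPS6A, RPS23A and RPS30B at 96 min, and RPS4A at 128 min. RPS23B and RPS6A were called up at 1 time only, and RPS6A had a value on 1 array at that time. At 48 min in YPD the Cy5 signal of RPS7A stood above background on 2 of 3 arrays and its Cy3 signal on 1 of 3. RPS3, which lines the entry of the mRNA channel, had log2 ratios below 0 at first. With no dye swap, a constant offset between the dyes was not tested. Its log2 ratios were -0.57, -0.95 and -0.76 at 0 min in YPD, and its mean peaked at 0.38 at 64 min. RPS4B, RPS6B, RPS19A, RPS27A and RPS30A were among the 6 genes never called up in YPD under global loess. That list depends on the normalization. With the curve fitted without ribosomal spots 37 of 39 genes were called up in YPD at some time. RPS4B, RPS6B and RPS27A were then up at 128 min, by 1.45, 1.51 and 0.97.

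At 16 min in glucose the genes called down were RPS6A, RPS7A and RPS30A. RPS6A encodes a target of the TOR-dependent S6 phosphorylation, and stood at -0.49, -0.62 and -0.18 at 16 min in glucose, against 0.27 and 0.57 at 0 min, a fall of 0.85 ± 0.22 on the log2 scale (SE, adjusted p = 0.00678).

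RPS30A was the only RPS gene called down against 0 min at 2 or more times, 6 times in YPD and 4 in glucose. It encodes a small protein near the entry of the mRNA channel. Its spots were among the dimmest of the array, at the 6.29th brightness percentile. Neither dye stood above background on any of the 3 arrays at 0 min in YPD, and Cy5 did so on none of the 3 at 32 min in YPD, so no fold is given. The log2 ratios were -1.18, -1.37 and -2.19 at 32 min in YPD, against 0.02, 0.07 and -0.11 at 0 min in YPD, and the fit called them different (adjusted p = 5.84e-07). RPS19A was dim as well, with Cy5 above background on 17 of 53 arrays and Cy3 on 5. RPS7A had no array above background in either dye at 32 min in YPD, while all 3 were above it at 0 and at 128 min in YPD, so no level is given for it at 32 min.

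**Figure D3:**
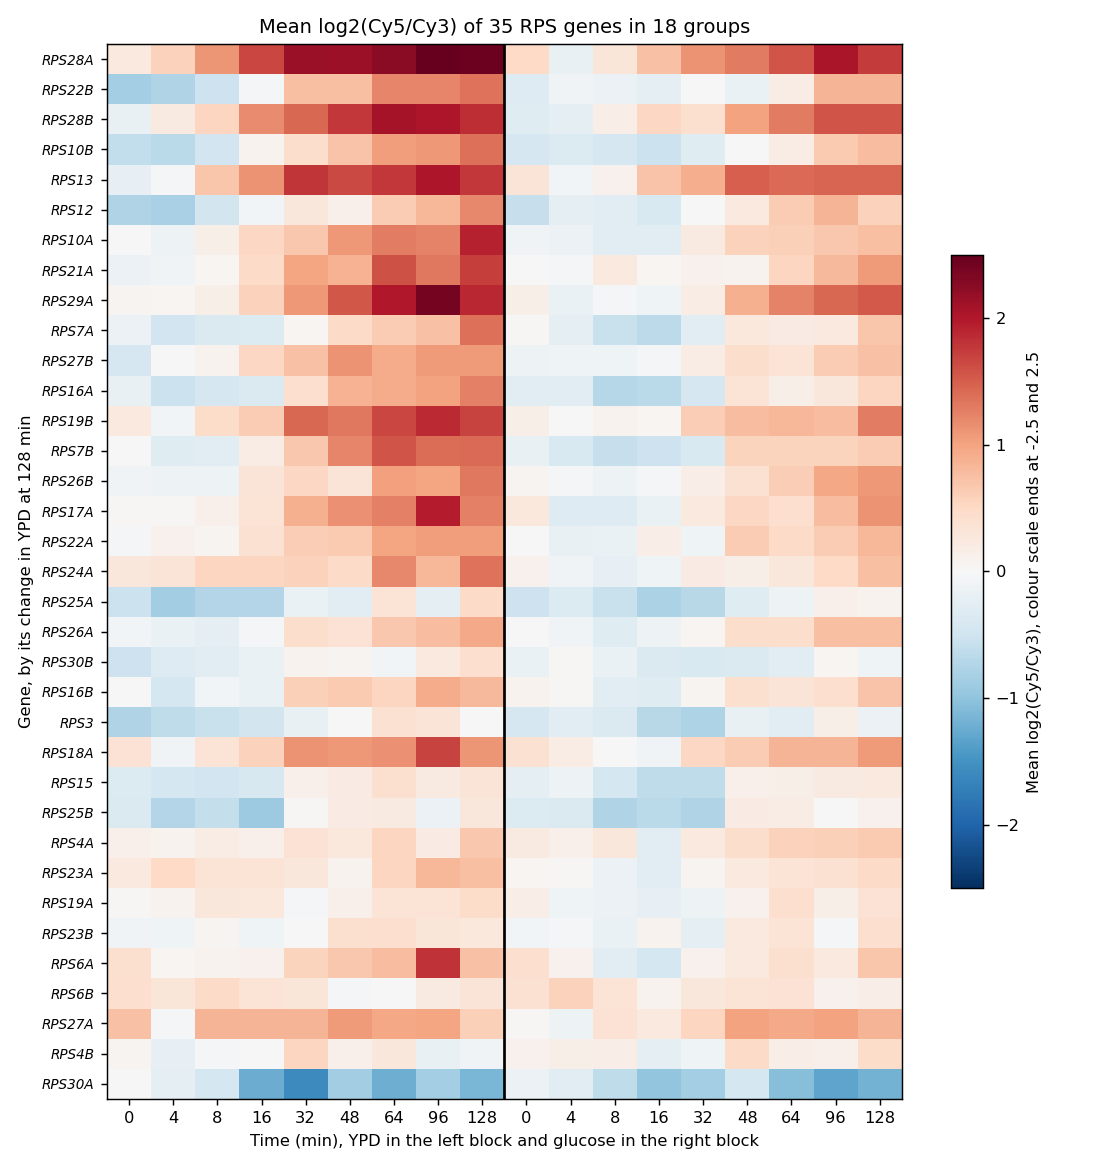
Mean log2(Cy5/Cy3) of each of 35 RPS genes (rows, ordered by the change in YPD at 128 min) at 9 times in min (columns), with YPD in the left block and glucose in the right block; red is above and blue below dormant spores, and the colour scale ends at -2.5 and 2.5. Most rows turn red from 32 min on in YPD and from 48 min on in glucose, and RPS30A at the bottom is blue in both media.

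YPD and glucose were compared with each other at each time, which asks whether the nitrogen and other nutrients of the rich medium set the RPS genes apart from glucose alone. No RPS gene was called between the media at 0, 4 or 8 min, when 0.0343%, 6.54% and 2.21% of all genes were higher in YPD and 0%, 1.92% and 0.944% lower. At 16 min 7 of 39 were higher in YPD and 0 lower, where 8.81% and 10.9% of all genes were, and at 32 min 14 were higher and 1 was lower, where 9.47% and 13.9% of all genes were. At 32 min 38 of 39 differences were above 0, with a median of 0.55 against 0.00 over all genes. For 21 of 39 RPS genes every YPD array stood above every glucose array at 32 min, as for 17.3% of all genes. The 3 YPD arrays at 32 min were quantified from their images on a day that held no other group, so at that time the medium and the day cannot be told apart. With the day as a random block 4 RPS genes were called higher in YPD at 32 min. Without YPD replicate 1, glucose replicate 1 or glucose replicate 2 the count was 9 each time.

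The differences at 32 min were led by RPS7B and the RPS28 genes. RPS7B, a gene of the body, had 0.88, 0.61 and 0.52 at 32 min in YPD, against -0.54, -0.41 and -0.20 at 32 min in glucose, a difference of 1.05 ± 0.24 (SE, adjusted p = 0.00105). RPS28B had 1.59, 1.21 and 1.49 in YPD, against 0.37, 0.06 and 0.75 in glucose, a difference of 1.04 ± 0.21 (SE, adjusted p = 0.000296). In both genes the media did not overlap. The others called higher in YPD included RPS10B, RPS13, RPS15, RPS16A, RPS16B, RPS19B, RPS21A, RPS22A, RPS25B, RPS28A and RPS29A, with differences between 0.53 in RPS16B and 1.04 in RPS28A.

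The lowest differences at 32 min were those of RPS6B and RPS30A. RPS6B, the copy of RPS6A, had 0.27, 0.36 and 0.25 in YPD and 0.29 and 0.29 in glucose, a difference of 0.01 ± 0.27 (SE, adjusted p = 0.99). RPS30A, below background in Cy5 on every array of both groups, had -1.18, -1.37 and -2.19 in YPD and -1.02, -0.99 and -0.57 in glucose, and was the 1 gene called lower (adjusted p = 0.0237). Without YPD replicate 3 the adjusted p was 0.255, and without YPD replicate 2, glucose replicate 1 or glucose replicate 3 it was 0.0543, 0.0605 and 0.0763.

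RPS genes called higher in YPD numbered 4 at 48 min (1.65% of all genes), 11 at 64 min (6.49%), 10 at 96 min (5.99%) and 5 at 128 min (3%). None was called lower at these times, when 8.03%, 13.6%, 10.4% and 6.57% of all genes were. At 128 min 34 of 39 differences were still above 0, with a median of 0.22 against -0.02 over all genes. That median was 0.17 under print-tip loess, 0.63 with the curve fitted without ribosomal spots and 1.03 with median centring. The counts called higher were then 7, 16 and 30, where 4.79%, 3.76% and 4.82% of all genes were. At 32 min the medians in these settings were 0.41, 0.82 and 1.11, so how far the media drew closer by 128 min depends on the normalization. Over the 39 genes the change at 128 min in glucose was 0.61 of that in YPD, as a slope through 0, with a correlation of 0.84 that is given as a description because the genes share arrays.

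RPS7B, RPS10A, RPS16A and RPS21A were among the genes called higher in YPD at 128 min. RPS10A, of the beak of the head, had 1.96, 2.18 and 1.61 in YPD, against 0.48 and 1.03 in glucose, a difference of 1.17 ± 0.23 (SE, adjusted p = 0.000652). Every YPD array of RPS10A lay above every glucose array. RPS4B, a very bright gene, had the lowest difference, -0.54 ± 0.22 (SE, adjusted p = 0.127). With the curve fitted without ribosomal spots it was 0.0007, so its direction is not settled.

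**Figure D4:**
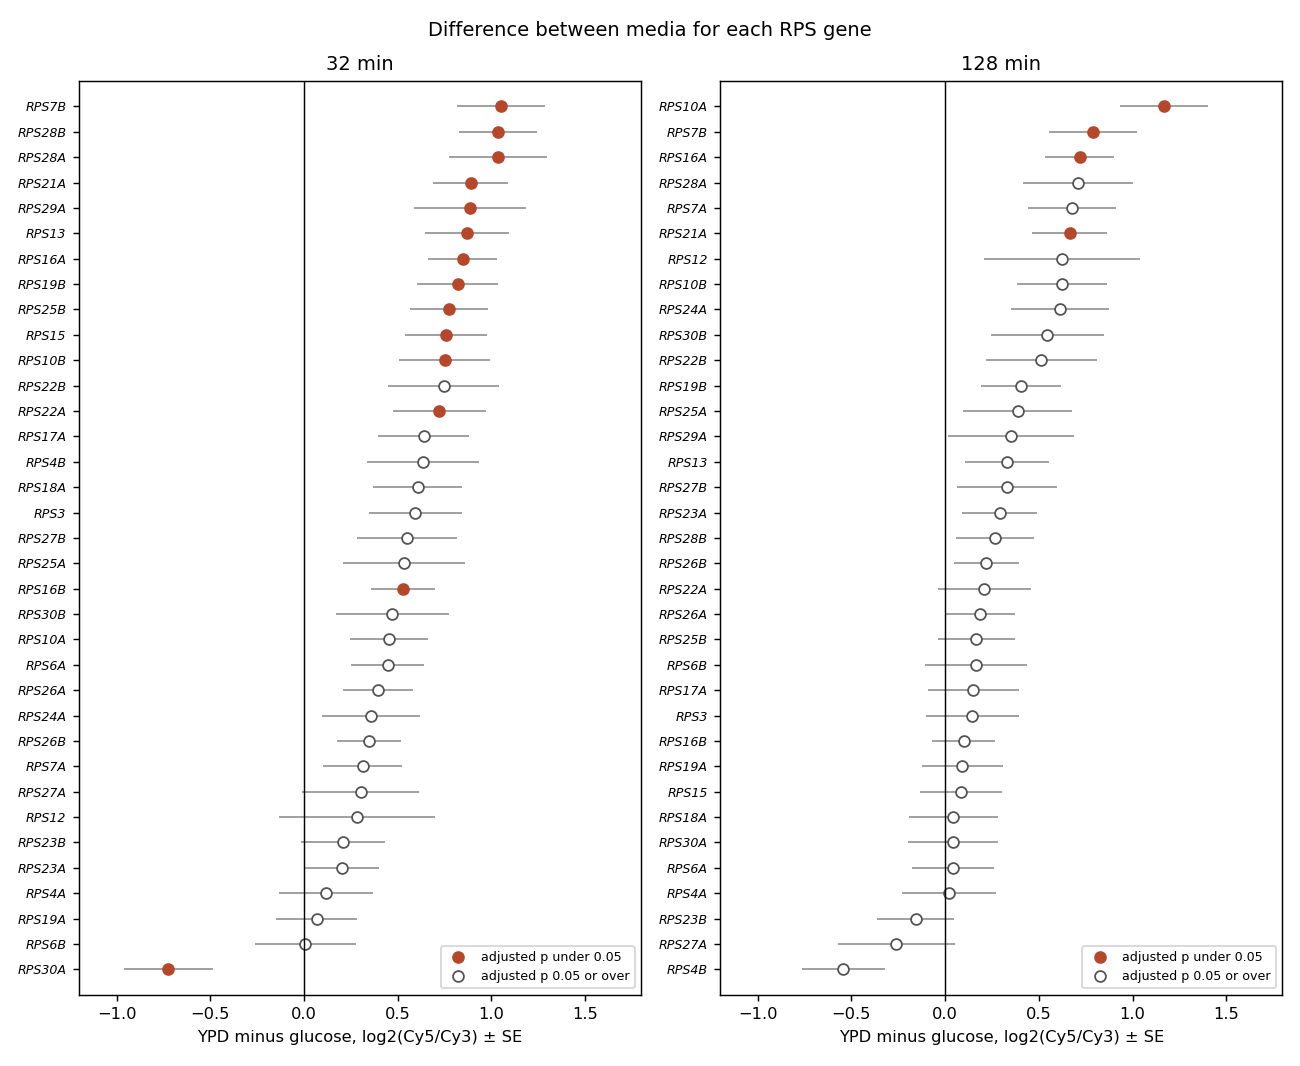
YPD minus glucose in log2(Cy5/Cy3) ± SE (x axis) for each of 35 RPS genes (rows, ordered by the difference) at 32 min (left) and 128 min (right); filled points have an adjusted p under 0.05. At 32 min 34 of 35 points lie above 0 and 14 are filled, and at 128 min 32 lie above 0 and 4 are filled.

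At 96 and 128 min some arrays of both media were quantified on the same day, 3 in YPD and 2 in glucose at each time. On those arrays alone 32 of 39 RPS genes were higher in YPD at 96 min, with a median difference of 0.37 against -0.02 over all genes, and 3 were called where 2.81% of all genes were. At 128 min 35 of 39 were higher in YPD, with a median of 0.21, and 2 were called (2.16% of all genes). This comparison was chosen after the data were seen.

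The change against 0 min itself was then compared between the media, a test of the difference of differences. At 32 min it was larger in YPD in RPS13 and RPS21A, where 0.978% of all genes were called in that direction. It was larger in YPD at 64 min in RPS21A and RPS22B (0.944% of all genes) and at 96 min in RPS6A, RPS17A and RPS28A (1.01%), where RPS6A had 1 YPD array and RPS28A had 1 glucose array at 0 min, and no RPS gene was called in the other direction at any time. At 32 min 36 of 39 of these differences were above 0, with a median of 0.67. The count at 32 min was 0 to 11 when 1 replicate was left out. It was 7 with the curve fitted without ribosomal spots (1.34% of all genes) and 21 with median centring (2.35%).

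Timing gives the same contrast in minutes, as a description. Of the 39 RPS genes 33 were called up at some time in YPD and 21 in glucose, where 41.5% and 21.5% of all genes were. The 20 called in both media were all first called earlier in YPD, as were 78.2% of all genes called in both. RPS27A alone was called up in glucose and not in YPD, and its log2 ratios at 0 min in YPD were -0.33, 1.54 and 0.97. With the curve fitted without ribosomal spots RPS27A was called up in YPD as well. Without glucose replicate 1 the 20 genes became 8, and without glucose replicate 2 they became 9. Under print-tip loess 16 of 16 were earlier in YPD, with the curve fitted without ribosomal spots 31 of 33 were earlier and 2 at the same time, and with median centring 29 of 29 were earlier.

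The minute at which the mean passed the midpoint between its value at 0 min and its highest value was interpolated for the 27 genes that rose by at least 0.5 in both media. It came earlier in YPD in 25 of 27. The median was 29.9 min in YPD and 46.8 min in glucose, with ranges of 12.2 to 61.8 min and 31.7 to 105 min. Under the other 3 normalizations the medians were 25.1 to 35.7 min in YPD and 42.6 to 51.8 min in glucose. RPS13 was the earliest gene in both media, at 12.2 min in YPD and 31.7 min in glucose. RPS7A was the latest in both, at 61.8 min in YPD and 105 min in glucose. Its minutes are uncertain, since neither dye stood above background on any array at 32 min in YPD. At 48 min its Cy5 did so on 2 of 3 arrays and its Cy3 on 1 of 3 in each medium. RPS10A and RPS26A were the exceptions, with 43.2 and 52.1 min in YPD and 37.1 and 45.9 min in glucose. The mean was highest at 96 or 128 min in 27 genes in YPD (11 and 16) and in 31 in glucose (8 and 23).

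The study's own filter, a mean at least 2-fold above dormant spores at 2 consecutive times, was passed by 18 RPS genes in YPD and 5 in glucose, where 16.5% and 8.69% of all genes passed it. All 5 of the glucose genes, which included RPS13, RPS28A, RPS28B and RPS29A, were among the 18. The filter has no test. It was passed by 34 RPS genes in YPD and 12 in glucose with the curve fitted without ribosomal spots, and by 8 and 2 with no background correction.

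Copies A and B of a protein were compared on the same array, as the log2 ratio of A minus that of B, which no shift of a whole array can move. Of 24 RPS pairs on the array 18 had both genes measured in every group, 15 of them with both chosen by the rule, and the test was adjusted over 43 A/B pairs of any kind. Against 0 min the difference changed in 3 of 17 RPS pairs at 32 min in YPD, where 14.3% of all pairs did, in 8 of 18 at 96 min and in 7 of 18 at 128 min (37.2% of all pairs at each). In glucose the test called 0 of 18 at 32 min (0% of all pairs), 1 of 18 at 96 min (6.98% of all pairs) and 0 of 18 at 128 min (4.65% of all pairs). The pair called at 96 min was RPS30, whose A gene is dim (adjusted p = 0.018). In YPD the RPS pairs were near the share of all pairs. Without YPD replicate 2 the count at 32 min was 1. The median size of the change of A minus B was 0.45 at 128 min in YPD and 0.24 in glucose.

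Under global loess both copies were called up at 128 min in YPD in 10 of 18 pairs, 1 copy in 6 and neither in 2. Of all single genes 18.4% were called up there. Pairs with changes of like size included RPS10 (1.91 for A and 2.00 for B) and RPS7 (1.52 and 1.44), whose differences both had an adjusted p of 0.843. The standard error of these differences was 0.24 to 0.27, so a difference of that size was not detectable. Neither copy was called up in RPS6 and RPS14 under global loess. With the curve fitted without ribosomal spots 37 of 39 RPS genes were called up at 128 min in YPD, where 20% of all genes were. RPS6B was among them, with a change of 1.51 ± 0.30 (SE, adjusted p = 0.000124). The counts of copies called up therefore depend on the normalization.

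The pairs called at 128 min in YPD included RPS30, RPS27, RPS22, RPS19, RPS4 and RPS16. In RPS22 the B gene, the dimmer one, rose further. The change of A minus B at 128 min in YPD was -1.10 ± 0.37 (SE, adjusted p = 0.0137), and -0.26 ± 0.36 with the curve fitted without ribosomal spots (adjusted p = 0.685). RPS16, whose protein reaches the peptidyl site with its tail, had 0.67 ± 0.16 (SE, adjusted p = 0.000798) and then -0.05 ± 0.16 (adjusted p = 0.799). RPS27, a zinc-binding protein of the platform, had -1.61 ± 0.33 (SE, adjusted p = 0.00012) and then -0.73 ± 0.35 (adjusted p = 0.15).

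The 0 min arrays of RPS27A lay far apart. RPS27A had 0.94, 0.71 and 0.87 at 32 min in YPD, against -0.33, 1.54 and 0.97 at 0 min in YPD. RPS27B had 1.04, 0.51 and 0.67 at 32 min, against -0.43, -0.59 and -0.25 at 0 min. The change of A minus B at 32 min in YPD was -1.05 ± 0.33 (SE, adjusted p = 0.0206). It was -1.48 without YPD replicate 1, -0.60 without YPD replicate 2 (adjusted p = 0.313) and -1.06 without YPD replicate 3 (adjusted p = 0.103). Measured against dormant spores instead of 0 min, A minus B was 0.10 at 32 min in YPD (adjusted p = 0.755).

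RPS19 and RPS30 were the pairs still called at 128 min in YPD under all 4 normalizations, and in each the A gene is the dim one. RPS19, of the head, was called at 32 min in YPD (adjusted p = 0.00271), with no fold given since its A gene was not above background. RPS19B had 1.55, 1.37 and 1.41 at 32 min in YPD, against 0.02, 0.10 and 0.61 at 0 min in YPD, with no overlap. RPS19A, with neither dye above background on any of these arrays, had 0.26, -0.34 and -0.07 at 32 min in YPD, against 0.28, 0.24 and -0.43 at 0 min in YPD. RPS30B had 0.47, -0.35 and 0.13 at 32 min in YPD, against -0.37, -0.66 and -0.51 at 0 min in YPD, a difference of 0.60 ± 0.30 (SE, adjusted p = 0.098). For RPS4 the change of A minus B at 128 min in YPD was 0.70 ± 0.24 (SE, adjusted p = 0.0207) under global loess and -0.23 ± 0.26 under print-tip loess (adjusted p = 0.428). The counts of pairs called at 128 min in YPD were 7 under global loess, 13 under print-tip loess, 2 with the curve fitted without ribosomal spots and 2 with median centring.

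In glucose the change of A minus B at 32 min was -0.56 for RPS29 (adjusted p = 0.906). RPS29A, a zinc-binding protein of the head, had -0.28, -0.14 and 0.99 at 32 min in glucose, against 0.05 and 0.23 at 0 min in glucose, so the times overlapped. At 0 min in glucose its Cy3 signal stood above background on 0 of 2 arrays and Cy5 on 1. Between the media A minus B differed in 0 of 17 RPS pairs at 32 min (0% of all pairs).

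**Figure D5:**
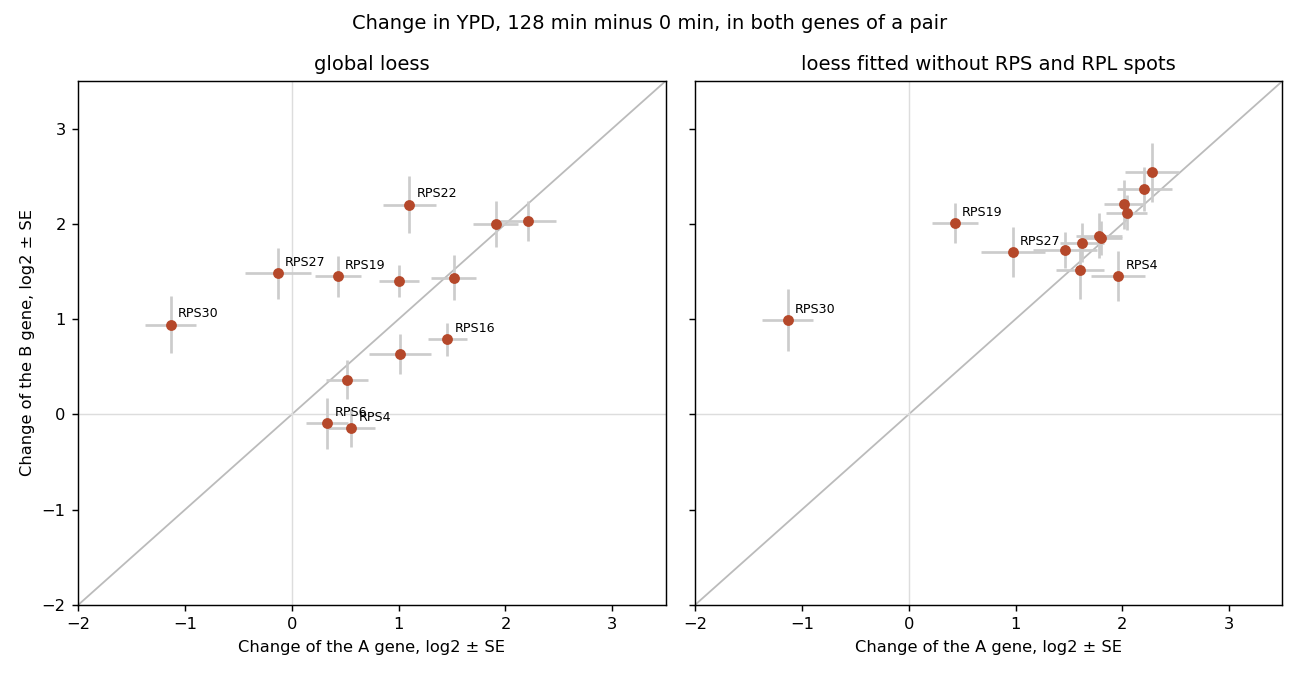
Change of the B gene (y axis) against change of the A gene (x axis), 128 min minus 0 min in YPD, log2 ± SE, for 13 RPS pairs with both genes chosen by the rule, under global loess (left) and under loess fitted without RPS and RPL spots (right); the line marks equal change, and pairs with copies at least 0.4 apart are named. RPS22 lies far from the line on the left and near it on the right, while RPS19 and RPS30, whose A genes are not above background on most arrays, stay away from it.

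Genes were grouped by the place of their protein in the subunit. Of 16 measured genes of the head 11 were up at 32 min and 15 at 128 min in YPD (22.2% and 18.4% of all genes), with a median change of 1.34 at 128 min. Of 23 genes of the body and platform 10 were up at 32 min and 16 at 128 min, with a median of 1.09. In glucose at 128 min 9 of 16 and 10 of 23 were up (11.3% of all genes), with medians of 0.82 and 0.66. These are counts of single genes, and no test of one group against the other was made. The body and platform group holds the very bright genes RPS4B and RPS6B. Their changes at 128 min in YPD were -0.15 and -0.09 here, and 1.45 and 1.51 with the curve fitted without ribosomal spots. With that curve 37 of all 39 RPS genes were up at 128 min in YPD (20% of all genes), so the gap between the groups depends on the normalization.

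Of the small-subunit genes that the rule left out, 11 were measured. At 128 min 5 of 11 were up in YPD and 4 in glucose, where 18.4% and 11.3% of all genes were, with median changes of 0.60 and 0.35. RPS29B rose by 2.27 ± 0.30 in YPD (SE, adjusted p = 3.89e-08) and RPS20, of the head, by 1.45 ± 0.31 (SE, adjusted p = 0.000208). ASC1, the yeast RACK1 homologue on the head, was called up (1.10 ± 0.45, SE, adjusted p = 0.0433) on 1 array with a value at 128 min in YPD, which the fit assumes to vary like the other groups. RPS14A, at the decoding platform, had a difference of -0.15 ± 0.26 (adjusted p = 0.679) and RPS14B one of -0.15 ± 0.27 (adjusted p = 0.699), and RPS31, which is made as a fusion to ubiquitin, one of -0.01 ± 0.30 (adjusted p = 0.975). RPS14A, RPS14B and RPS31 were very bright, at brightness percentiles of 97.9, 97.4 and 99.3. For RPS genes that bright the size of the change depended on the normalization.

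The large-subunit genes gave counts near those of the RPS genes. Of 62 RPL genes 37 were up at 32 min and 41 at 128 min in YPD (22.2% and 18.4% of all genes), with median changes of 0.73 and 0.97. In glucose 1 and 28 were up (8.07% and 11.3% of all genes), with medians of 0.12 and 0.74. Between the media 22 of 62 were higher in YPD at 32 min and 5 at 128 min (9.47% and 3% of all genes). Of 20 genes for the small subunit of the mitochondrial ribosome, which are encoded in the nucleus, none was up at 32 min in YPD and 4 were down, where 22.2% and 26.6% of all genes were, and the median change was 0.09.

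Genes for assembly of the small subunit were called up earlier than the genes of its proteins. Of 23 assembly and chaperone genes 20 were up at 16 min in YPD, where 8 of 39 RPS genes and 22.7% of all genes were, and 22 at 32 min (22.2% of all genes), with median changes of 1.46 and 1.69. In glucose 12 of 23 were up at 32 min, with a median of 0.995, where 1 of 39 RPS genes and 8.07% of all genes were. At 16 min in YPD HRR25, a kinase of late maturation, rose by 3.04 ± 0.35 (SE, adjusted p = 1.07e-08) and PNO1, a platform assembly factor, by 2.82 ± 0.43 (SE, adjusted p = 9.28e-07). EMG1, a methyltransferase of the ribosomal RNA, rose by 2.95 ± 0.37 at 32 min in YPD (SE, adjusted p = 1.55e-08) and by 2.02 ± 0.41 at 32 min in glucose (SE, adjusted p = 0.000635). TSR2, which chaperones Rps26, rose by 2.07 ± 0.29 at 32 min in YPD (SE, adjusted p = 1.1e-07), when RPS26A and RPS26B had risen by 0.50 and 0.61. YAR1, the chaperone of Rps3, rose by 1.63 ± 0.25 at 32 min in YPD (SE, adjusted p = 9.07e-07), when RPS3 was at 0.58 ± 0.25 (adjusted p = 0.0526).

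Of 8 measured regulators of ribosomal protein genes none was up at 32 min in either medium and 2 were down in each, where 26.6% of all genes were down in YPD and 9.05% in glucose. At 16 min in YPD 2 were up and 4 were down (22.7% and 25.9% of all genes). TOR1, a kinase of the TOR complex, fell by 3.02 ± 0.36 on the log2 scale at 32 min in YPD (SE, adjusted p = 4.73e-09), and FPR1, which binds rapamycin and also the promoters of some ribosomal protein genes, fell by 1.31 ± 0.22 (SE, adjusted p = 4.47e-06). RAP1, the general activator, fell by 0.72 ± 0.19 at 16 min in YPD (SE, adjusted p = 0.00154) and stood at -0.22 ± 0.19 at 32 min (adjusted p = 0.357). Of 11 genes listed beforehand as spore-stage genes, not all of them specific to spores, 6 were down at 32 min in YPD and 4 in glucose (26.6% and 9.05% of all genes). Of the same genes 2 and 1 were up (22.2% and 8.07%). Sequences of promoters and introns were not analysed here.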

How the data were processed

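The data are 53 spotted 2-colour arrays of 13056 spots. The authors quantified each image with software that the file headers do not name, and the deposited values are mean spot intensities with local background, 1 file per dye, neither background-subtracted nor normalized. The authors also deposited a table of log2 ratios, their mean over replicates after loess normalization with limma (version not given in the sources used here). It was used as an alternative. Image names gave the dye on 14 arrays. The direction rests on these and the labels, and all 53 arrays correlated with that table (0.47 to 0.95).

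Here intensities were corrected with normexp (offset 50), a global loess curve was fitted to log2 of Cy5 over Cy3 on every array, flagged spots were left out and spots of a gene averaged. On 11 glucose arrays with a second layout, gene identifiers of that layout were used. Tests used limma 3.58.1 in R 4.3.3 with a single fit to all 18 groups, p-values adjusted by Benjamini-Hochberg over all genes of a contrast and a threshold of 0.05, and were tested on simulated data. A spot was above background when it passed it by 2 SD. The replicates are described as biological in the study's methods. The number of arrays limits the precision.

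Members and gene lists were chosen with earlier results of these data known. Values array by array were given for the RPS genes with the largest or smallest change at 32 min in each medium, the largest differences between media at 32 and 128 min, the 3 pairs that parted most at 32 min in each medium and genes called down at 2 or more times. Other genes shown array by array were chosen after their values were seen. Alternatives changed the background correction, normalization, signal measure, flags, saturated and dim spots, baseline, arrays in the fit and blocks, or left out a replicate. Some genes and pairs that the rule chose, and that the counts hold, are not reported by name here or drawn in the plots that name genes.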

Additional observations from a re-analysis of the deposited data

Results flagged for a closer look

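The change against 0 min differed between YPD and glucose, by a test of the difference of the changes, in 7 cases of single RPS genes and in A/B pairs. Over single genes, the change in YPD exceeded that in glucose by 1.398 ± 0.34 for RPS13 at 32 min (SE, adjusted p = 0.00846), by 1.02 ± 0.30 for RPS21A at 32 min (adjusted p = 0.0386) and by 1.17 ± 0.30 at 64 min (adjusted p = 0.0126), and by 1.56 ± 0.44 for RPS22B at 64 min (adjusted p = 0.0282), all on the log2 scale by limma's test. At 96 min it exceeded that in glucose by 1.41 ± 0.36 for RPS17A (adjusted p = 0.02), by 1.74 ± 0.45 for RPS28A (adjusted p = 0.0208) and by 1.60 ± 0.35 for RPS6A (adjusted p = 0.00543). RPS6A had a value on 1 of 3 arrays at 96 min in YPD, 1.81, against 0.27, 0.31 and 0.14 at 96 min in glucose. RPS28A had a value on 1 array at 0 min in glucose, and its Cy3 signal stood above background on 1 of 3 arrays at 96 min in each medium and on 0 of 3 at 0 min in YPD. For both genes the fit assumes the lone array to vary like the other groups, and no fold is drawn from RPS28A. For RPS17A all 3 YPD arrays at 96 min stood above all 3 glucose arrays.

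Over A/B pairs, A minus B changed more in YPD than in glucose by 1.45 ± 0.44 for RPS28 at 96 min (SE, adjusted p = 0.0479), a value that rests on the same RPS28A arrays. Of all pairs 4.65% were called at 96 min and 6.98% at 128 min. For RPS27 at 128 min it was -1.60 ± 0.50 (adjusted p = 0.0498). This value rests on scattered arrays at 0 min in YPD, where A minus B of RPS27 had a mean of 1.15 and an SD of 1.03. Compared directly at 128 min, YPD minus glucose in A minus B of RPS27 was -0.59 ± 0.33 (SE, adjusted p = 0.323 by limma's test). With the loess curve fitted without RPS and RPL spots the value of RPS28 at 96 min was 1.16, with an adjusted p of 0.187. No group held the 4 to 10 arrays that a check for single outlying arrays needs.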

How the results depend on the processing

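Of 237 recomputed counts 178 stayed within 1.5 times the value reported, and of 616 recomputed values of single genes and pairs 482 kept their direction and side of the threshold, 122 kept the direction and lost the call, 2 gained it and 10 changed sign. The cause was not tested.

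The following counts differed by more than 1.5 times. With median centring there were 34 RPS genes up at 32 min in YPD (21 as reported), 33 with a level in YPD above that in glucose after 32 min (14), 21 with a larger change in YPD at 32 min (2), 2 pairs that differed between media at 32 min (0), and 36 and 9 genes past the 2-fold filter in YPD and glucose (18 and 5). With loess fitted without RPS and RPL spots these were 24 higher in YPD, 7 with a larger change, 1 pair, and 34 and 12 past the filter, and there were 0 genes up at 32 min and 32 up at 128 min in glucose (1 and 19) and 31 earlier in YPD (20). At 32 min median centring called 23.9% of all genes up in YPD, 10.8% higher in YPD and 2.35% with a larger change. Loess without ribosomal spots called 10.8% higher in YPD and 1.34% with a larger change. In glucose it called 8.39% of all genes up at 32 min and 12.7% at 128 min. Print-tip loess gave 2 genes up at 32 min in glucose, 7 pairs that changed at 32 min in YPD (3) and 2 pairs between media. No background correction gave 2 pairs between media and 8 and 2 genes past the filter, and the authors' table gave 2 past it in glucose. At 32 min in glucose the count up was 0 from median spot signals, 2 with flagged spots kept, 0 with only the groups compared in the fit and 2 with the day as a fixed block, which gave 14 up at 128 min in YPD (31). Against dormant spores it was 8, with 29 up at 128 min in glucose and 14 with a larger change. The groups compared alone gave 7 higher in YPD at 32 min, and the day as a random block 4, with 1 larger change. Without dim genes 1 pair changed at 32 min in YPD. Without the 11 arrays of the second layout, a setting chosen after seeing the data, there were 0 and 11 genes up at 32 and 128 min in glucose, 10 with a larger change and 11 earlier in YPD.

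Leaving out 1 replicate gave 13 to 22 genes up at 32 min and 25 to 31 at 128 min in YPD, and 0 to 1 and 8 to 20 in glucose. It gave 9 to 20 genes higher in YPD at 32 min, 0 to 11 with a larger change, 1 to 4 pairs that changed at 32 min in YPD, 0 to 1 between media, 15 to 18 and 5 to 7 genes past the filter in YPD and glucose, and 8 to 21 earlier in YPD.

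Values changed sign as follows. RPS6B in YPD minus glucose at 32 min (0.01) was -0.067 without background correction, -0.064 with median signals, -0.033 with the day as a random block and -0.027 to 0.030 with 1 replicate left out. At 128 min RPS4B (-0.54) was 0.81 with median centring and 0.0007 with loess without ribosomal spots. RPS16 A minus B at 128 min in YPD (0.67) was -0.20 and -0.052 with these. Against dormant spores A minus B at 32 min was 0.10 for RPS27 in YPD (-1.05) and 0.081 for RPS29 in glucose (-0.56).

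The replicate numbers stand in file names only, and were not taken to pair arrays. The deviations of arrays of 1 number had a median correlation of 0.03 in YPD (-0.34 to 0.48, 41 of 108 over 0.1) and 0.1 in glucose (-0.27 to 0.71, 50 of 100), against -0.01 and -0.08 for other numbers. A replicate block gave 2 genes up at 32 min in glucose and moved no other count of calls by over 1.5 times. It could not be fitted between media, nor the day as a fixed block at 32 min in YPD. Some values had no result without dim genes or without a replicate.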
